A study of Anthurium andraeanum with 18 samples.

Results

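The last cooling step in leaves of the Anthurium andraeanum cultivar Fantasy Love was followed by RNA sequencing in 6 of the 18 libraries of the study, 3 from plants at 4 °C and 3 from plants at 6 °C. The libraries were chosen by the cultivar and temperature in their labels, and every gene in the deposited table that passed a filter on low counts was compared. The 4 °C plants had spent 3 days at 15 °C, 3 days at 6 °C and 3 days at 4 °C, whereas the 6 °C plants were sampled after the 3 days at 6 °C. The lower temperature and the 3 further days in the cold therefore cannot be told apart. All plants were in full flower and had 12 h of light and 12 h of darkness a day. Levels in 3 libraries of Fantasy Love plants that stayed at 25 °C are given beside some results, and the same step in the cultivar Oregon, again with 3 libraries at 4 °C and 3 at 6 °C, is the only other comparison. Biological replicates is the label for the libraries of a group, with no word on whether they came from different plants. The p-values then reflect only how these libraries vary, which may be technical. The time of day at collection is not labelled.

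Anthurium is an ornamental aroid of tropical forests and is known to be injured by chilling. In leaves, light is caught by chlorophyll-binding antenna proteins around the photosystems, and cold slows the carbon reactions that use the captured energy. The leaf surface is sealed by a cuticle of cutin and wax that epidermal cells make from long-chain and very-long-chain fatty acids, with transporters and lipid transfer proteins moving the products outwards. Water crosses cell membranes through aquaporins, among them the PIPs of the plasma membrane and the TIPs of the vacuole. Plants that acclimate to cold commonly build up dehydrins, sugars of the raffinose family and chaperones, which protect membranes and proteins.

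More genes were lower than higher at 4 °C in Fantasy Love, by a margin that depended on the scaling. Transcripts of the light-harvesting antenna, of cuticle and wax enzymes, of lipid transfer proteins and of aquaporins fell in 57.5% to 71.4% of their tested members, and those for wall enzymes, laccases, anthocyanin synthesis and proteases fell in 35.2% to 43.5% of theirs, against 7.19% of all genes. The genes that rose included the dehydrin COR410, 1 galactinol synthase, a stachyose synthase, a type 3 metallothionein, HSP70 chaperones, the kinase SAPK7 and phytochrome B. Several genes known for cold responses, such as the desaturase FAD7, LEA5 and a small heat shock protein, did not pass the test in this step.

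The 6 libraries held 14769909 to 21027917 estimated counts. Replicate 2 at 6 °C stood apart from the other 5 libraries. It had counts for 59649 genes, against 76283 to 96853 in the others, and genes named like ribosomal RNA took 4.21% of its counts, against 0.39% to 0.437% in the others. In a principal component analysis of all 9 Fantasy Love libraries it lay nearest to the 25 °C libraries on the first component and far from all libraries on the second. Its correlation with the other 6 °C libraries, over log2 levels of all tested genes, was 0.867 and 0.8574, while those 2 had a correlation of 0.9151 with each other. Results are therefore given with and without this library, and its part in the results that depend on it was not tested further.

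**Figure D1:**
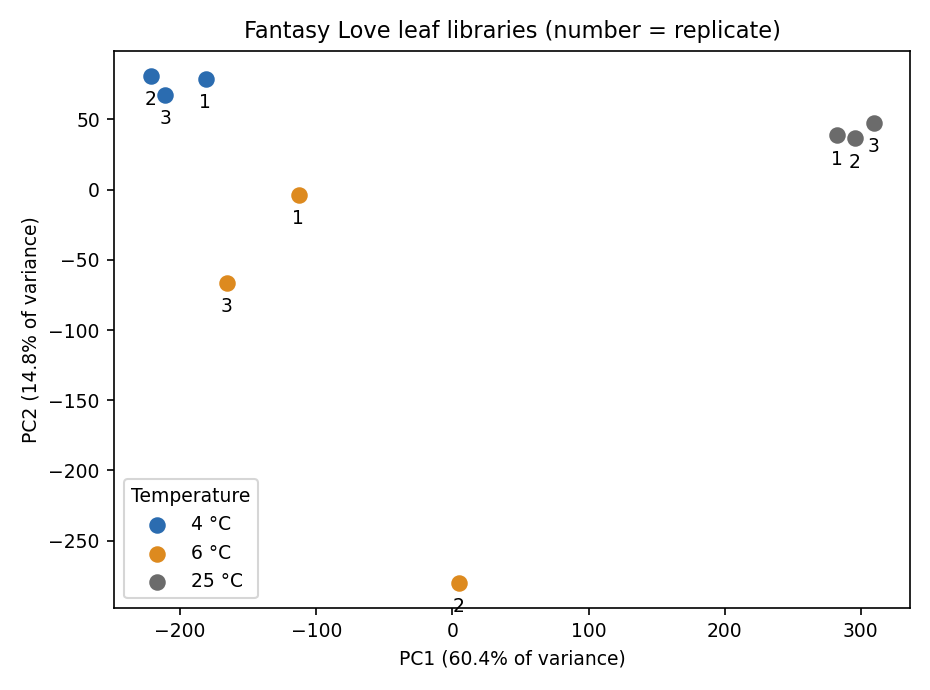
Principal components of log2 CPM of all tested genes in the 9 Fantasy Love libraries, with the first component (60.4% of the variance) on the x axis and the second (14.8%) on the y axis. The 3 libraries at 4 °C lie together, while replicate 2 at 6 °C lies at -279.9 on the second component, against -66.74 and -3.70 for the other 2 libraries at 6 °C.

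The leaf label was checked against marker genes chosen by protein name. Antenna genes took 0.0746% to 0.0849% of the counts at 4 °C, 0.158% to 0.337% at 6 °C and 5.11% to 6.1% at 25 °C. Of 12 genes listed by name as guard cell markers 8 were tested and 4 fell (50%, against 7.19% of all genes, and 2 without 6 °C replicate 2). Their summed share was 0.000659% ± 0.00018 at 4 °C and 0.00358% ± 0.00149 at 6 °C (SD, n = 3 each). The names include epidermal patterning factors, so the list is not limited to genes of guard cells. Its member with the most counts overlapped between the groups and lost its call without replicate 2. Phloem (8 tested), xylem (2 tested) and root markers (2 tested) had no called member. Of 13 tested floral organ markers 2 fell (15.4%), with and without replicate 2. Laccases, planned as xylem markers, were counted in the list of lignin genes and class III peroxidases. In that list 27 of 64 tested genes fell (42.2%), and 19 without 6 °C replicate 2. In leaf tissue as a whole, fewer cells of a type and less RNA per cell cannot be told apart, and the part of the guard cell markers in the results was not tested. Genes whose best protein match is mammalian took 0.00156% to 0.0201% of the counts of the 6 libraries.

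Of 51670 genes tested out of 132108 in the table, 3715 fell and 946 rose at 4 °C, which is 7.19% and 1.83% of them. Calls needed an adjusted p below 0.05, from edgeR's quasi-likelihood test with Benjamini-Hochberg adjustment, and a log2 fold change of at least 1 in size. Fold changes, also where a gene is said to have fallen or risen by a value, are on the log2 scale as 4 °C over 6 °C ± SE, with both groups at n = 3. Either way 4661 genes were called (9.02%), and 3381 without 6 °C replicate 2 (6.54%). Without replicate 2 at 6 °C the counts were 2799 lower and 582 higher (5.42% and 1.13%). Called in both fits were 2304 lower and 393 higher genes (4.46% and 0.761%), and none was called in opposite directions. With quantile normalised values and limma, 3352 fell and 2661 rose. Leaving out 1 of the other libraries also moved the counts: 2255 fell and 464 rose without 4 °C replicate 2, 548 rose without 4 °C replicate 3, 2019 rose without 6 °C replicate 1 and 2322 rose without 6 °C replicate 3. The 3 libraries of each group did not overlap in 2966 of the genes called lower and 925 of those called higher (5.74% and 1.79% of all tested). Over all genes tested, called or not, 5492 were lower (10.6%) and 6202 higher (12%) at 4 °C without overlap, so lack of overlap alone did not favour falls. The median log2 fold change over all genes was 0.03, and 0.00 without replicate 2. With the 6 libraries fitted alone, 428 of 36987 genes fell and 35 rose (1.16% and 0.0946%). All 428 of these lower genes and 33 of the 35 higher ones were also called in the fit of all 18 libraries. Without replicate 2 at 6 °C, the fit of the 2 groups alone gave 989 lower and 193 higher. The fit of all 18 libraries shares its estimate of spread over all groups. Library quality weights were 0.136 to 0.615 for Fantasy Love at 6 °C, 0.56 to 1.25 at 4 °C and 0.796 to 2.31 in the other groups. Whether the shared estimate is too small for the 2 groups compared was not tested.

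All lists hold genes with a protein name, and these may be called more often than all genes tested. Several lists had no called rise. At an unadjusted p below 0.05, edgeR's test put 1 antenna gene, 2 photosystem and electron transport genes, 1 cuticle gene, 4 wall genes, 3 genes for lignin and peroxidases, 1 flavonoid gene, 2 protease genes, 3 pathogenesis-related genes and 3 jasmonate genes on the higher side, and no lipid transfer protein. DESeq2's Wald test called 1 photosystem, 2 lignin and peroxidase and 1 pathogenesis-related gene higher, and none in the other lists just named.

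**Figure D2:**
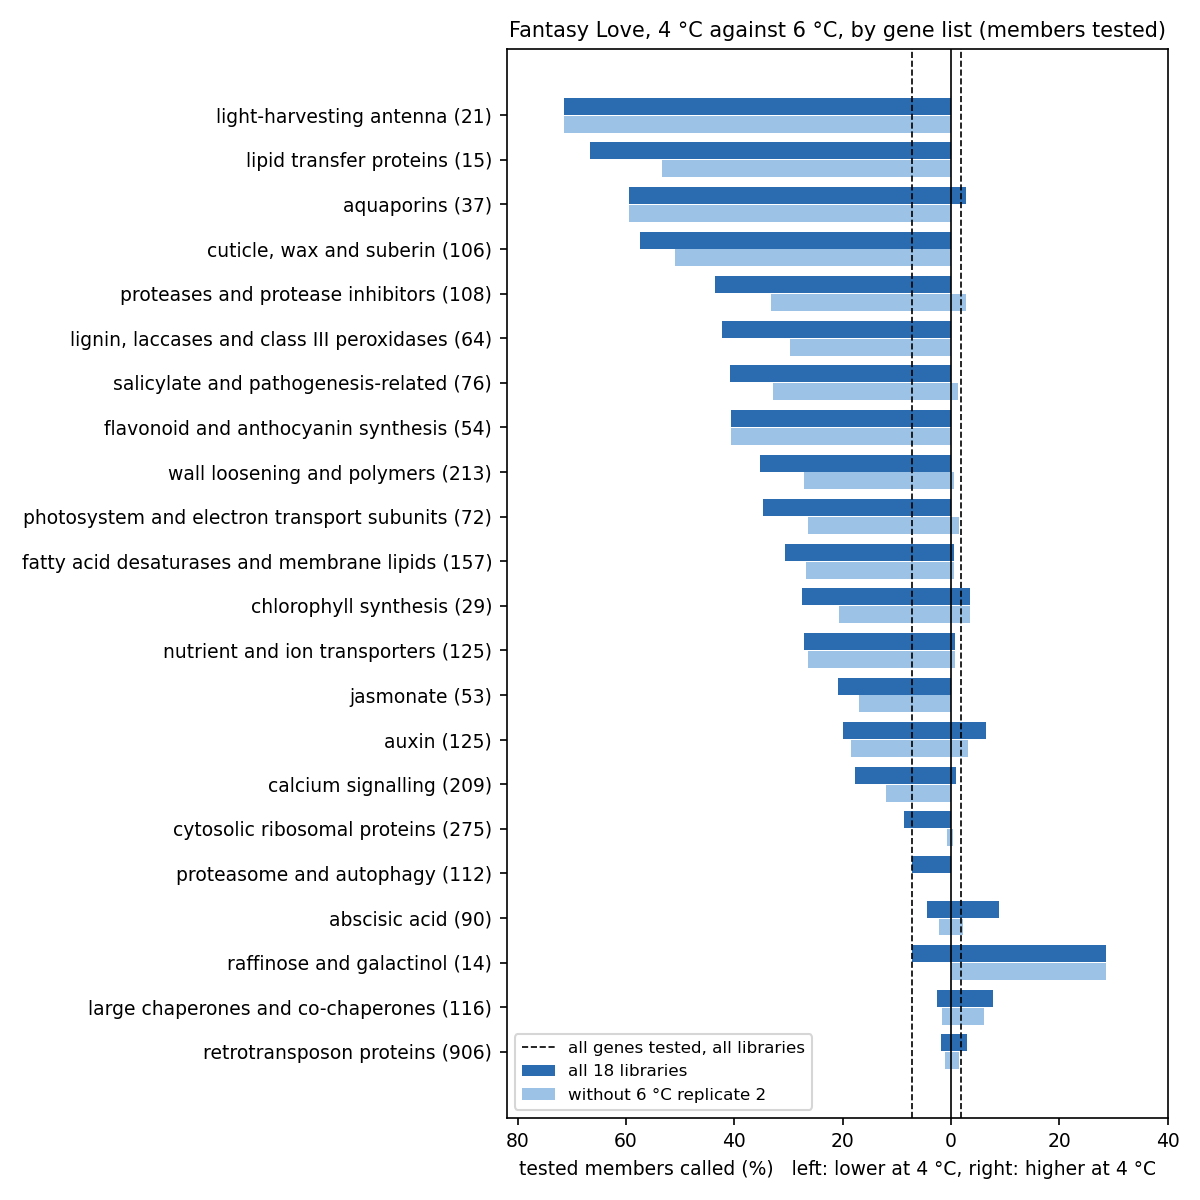
Share of tested members called lower (bars to the left, in percent) or higher (bars to the right) at 4 °C than at 6 °C in Fantasy Love, by gene list, with all 18 libraries (dark) and without 6 °C replicate 2 (light); the number of tested members follows each name and the dashed lines mark the shares over all genes tested, 7.19% lower and 1.83% higher. The antenna list reaches 71.4% lower in both fits, raffinose and galactinol 28.6% higher in both, and cytosolic ribosomal proteins 8.73% lower with all libraries and 0.727% without replicate 2.

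Genes for the leaf cuticle were among those that fell most often. Of 106 tested genes for cuticle, wax and suberin, 61 fell (57.5%, against 7.19% of all genes) and none rose, and 54 fell without replicate 2. Their summed share of the counts was 0.051% ± 0.0001 at 4 °C and 0.285% ± 0.0639 at 6 °C (SD, n = 3 each), and the groups did not overlap (2-sided exact permutation p = 0.1, the smallest that 3 against 3 libraries allow). The median log2 fold change of the list was -2.79, and -2.18 without replicate 2. The same 106 genes had a median of -0.44 in Oregon, where 10 of them fell. With the 6 libraries fitted alone, 26 of 86 tested list members fell.

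Genes for making and exporting wax precursors fell together. ABCG11 (DN53501_c2_g3), a transporter that moves cuticular lipids out of epidermal cells in Arabidopsis, had 10.8, 10.7 and 8.98 CPM at 4 °C, against 92.8, 103 and 81.2 CPM at 6 °C. The groups were far apart and the replicates close, and ABCG11 fell by 3.18 ± 0.22 on the log2 scale (adjusted p = 5.34e-07), with -3.15 ± 0.20 when replicate 2 was left out. CER3 (DN52908_c1_g1), needed for wax alkanes, had 8.82, 10.8 and 10.6 CPM at 4 °C and 88.3, 90.5 and 141 CPM at 6 °C, a log2 fold change of -3.40 ± 0.30 (adjusted p = 3.63e-06). The 25 °C libraries held 33.5, 75 and 57.6 CPM of CER3, so the 6 °C libraries were the highest of the 3 temperatures. Its Arabidopsis partner CER1 (DN54699_c0_g1) had 1.93, 3.36 and 2.37 CPM at 4 °C and 19.8, 246 and 21.2 CPM at 6 °C. The 6 °C replicate 2 was more than 10 times as high as the other 2, and the log2 fold change of CER1 was -5.23 ± 0.82 (adjusted p = 0.00053) with it and -3.05 ± 0.42 without it. KCS10 (DN37254_c1_g4), a 3-ketoacyl-CoA synthase that elongates fatty acids to very long chains, had 3.49, 6.19 and 2.25 CPM at 4 °C and 92, 195 and 88.6 CPM at 6 °C, against 275, 528 and 909 CPM at 25 °C. The order of its levels, from high to low, was 25, 6 and 4 °C without overlap, and in the step to 4 °C it fell by 4.98 ± 0.50 (adjusted p = 9.66e-06) on the log2 scale. The calls for ABCG11, CER3 and KCS10 held when the 6 libraries were fitted alone, while that for CER1 did not (adjusted p = 0.0603). CER1, CER3 and KCS10 were chosen after their values were seen.

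Several surface genes were nearly silent at 4 °C. CYP86A2 (DN36962_c0_g2), a cytochrome P450 that oxidises fatty acids for cutin in Arabidopsis, had no count in any 4 °C library, against 5.74, 1.49 and 47.5 CPM at 6 °C. It was at least 412-fold lower at 4 °C, taking 3 counts over the group as the limit (adjusted p = 0.0145). GDSL esterases, a family that includes cutin-polymerising enzymes, were among the largest falls. The GDSL esterase APG (DN45859_c2_g4) had 0.377, 0.267 and 0 CPM at 4 °C and 549, 319 and 877 CPM at 6 °C, a log2 fold change of -11.41 ± 1.70 (adjusted p = 0.000336). Its 25 °C libraries ranged widely, with 2.21, 321 and 939 CPM. The relative At5g37690 (DN52276_c0_g3) had 0, 0.0533 and 0.125 CPM at 4 °C and 23.7, 239 and 31.7 CPM at 6 °C, and fell by 10.47 ± 1.32 (adjusted p = 8.64e-05). Replicate 2 was its highest 6 °C library, and the log2 fold change was -8.69 ± 0.96 without it. Another one, LTL1 (DN38997_c1_g4), had 1 count in the 4 °C libraries together and 2.36, 4.54 and 152 CPM at 6 °C, where replicate 3 alone was high. The ratio of 6 °C to 4 °C counts for LTL1 was 3601, with a 95% counting interval of 646 to 142296 (adjusted p = 0.00218). APG and At5g37690 kept their calls with the 6 libraries fitted alone, and LTL1 (adjusted p = 0.0562) and CYP86A2 (adjusted p = 0.0685) did not.

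Lipid transfer proteins, small secreted proteins that bind lipids and are abundant in epidermal cells, fell in 10 of 15 tested members (66.7%), with a median log2 fold change of -3.26. Without replicate 2, 8 fell and the median was -2.16. DIR1 (DN36915_c1_g3), named after an Arabidopsis lipid transfer protein of systemic defence, had 0.0472, 0.0533 and 0.125 CPM at 4 °C, against 99.4, 157 and 132 CPM at 6 °C. It fell by 10.58 ± 1.23 on the log2 scale (adjusted p = 3.52e-05), and its adjusted p was 0.000375 with the 6 libraries fitted alone. The list member with the most counts, LTP1 (DN56766_c0_g1), had 26.2, 17.8 and 38.8 CPM at 4 °C and 264, 1508 and 87.8 CPM at 6 °C. The 6 °C libraries of LTP1 differed widely among themselves, with replicate 2 highest, and the log2 fold change was -4.49 ± 0.69 with replicate 2 (adjusted p = 0.000421) and -2.71 ± 0.35 without it. The lipid-binding protein At4g00165 (DN55307_c1_g4) had 2 counts at 4 °C in all and 4.33, 2.66 and 147 CPM at 6 °C, where again replicate 3 was the high one. Its ratio of 6 °C to 4 °C counts was 1748 (95% counting interval 483 to 14437, adjusted p = 0.00101). LTP1 and At4g00165 were not called with the 6 libraries fitted alone.

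Antenna genes were already far below their 25 °C level at 6 °C, and most were lower again at 4 °C. Of 21 tested members 15 fell and none rose (71.4%), with a median log2 fold change of -1.98, and 15 fell also without replicate 2. Their summed share was 0.0781% ± 0.00592 at 4 °C and 0.241% ± 0.0901 at 6 °C (SD, n = 3 each, 2-sided exact permutation p = 0.1). In Oregon 3 of the 21 rose and none fell. The antenna genes resemble one another closely, so reads may be divided among them uncertainly. With the 6 libraries fitted alone, 4 of the 21 were called.

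The major antenna protein of photosystem II, LHCII type I (DN35270_c0_g1), had 6.04, 11 and 18.1 CPM at 4 °C, against 28.1, 332 and 162 CPM at 6 °C and 8049, 6742 and 8703 CPM at 25 °C. The 6 °C libraries did not overlap with the 4 °C libraries but differed more than 10-fold among themselves, with replicate 2 highest. The log2 fold change was -3.89 ± 0.62 (adjusted p = 0.000595), and -3.06 ± 0.53 without replicate 2. CAB6A (DN36170_c0_g4), which feeds light energy to photosystem I, had 16.7, 25.6 and 25.9 CPM at 4 °C and 117, 233 and 135 CPM at 6 °C, a log2 fold change of -2.83 ± 0.28 (adjusted p = 9.06e-06). Its replicates were closer, and CAB6A kept its call with the 6 libraries fitted alone (adjusted p = 0.0194). CAB8 (DN55657_c0_g1), a second photosystem I antenna protein chosen after its values were seen, had 33.5, 38.5 and 51.7 CPM at 4 °C and 139, 298 and 313 CPM at 6 °C, and fell by 2.60 ± 0.28 (adjusted p = 2.22e-05). The minor antenna protein CP26 (DN46828_c0_g2, LHCB5) had 82.7, 110 and 74.2 CPM at 4 °C and 188, 520 and 345 CPM at 6 °C, a log2 fold change of -1.98 ± 0.31 (adjusted p = 0.000484). LHCII and CP26 were not called with the 6 libraries fitted alone (adjusted p = 0.0685 and 0.0651), whereas CAB8 was.

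Subunits of the photosystems and the electron transport chain fell in 25 of 72 tested members (34.7%) and rose in none, with a median log2 fold change of -0.74. Without replicate 2, 19 fell and 1 rose. PSAN (DN32525_c0_g13), the plastocyanin-side subunit N of photosystem I, had 57.5, 78 and 72.1 CPM at 4 °C and 237, 232 and 330 CPM at 6 °C, and fell by 1.94 ± 0.22 (adjusted p = 3.49e-05). PSBO (DN42574_c0_g1), which stabilises the oxygen-evolving manganese cluster and was chosen after its values were seen, had 235, 393 and 215 CPM at 4 °C and 684, 751 and 851 CPM at 6 °C, a log2 fold change of -1.44 ± 0.23 (adjusted p = 0.000651). PSBR (DN47334_c0_g4), another subunit of photosystem II, had 456, 545 and 456 CPM at 4 °C and 997, 1227 and 1210 CPM at 6 °C. It fell by 1.24 ± 0.18 (adjusted p = 0.000322), with tight replicates in both groups. The list member with the most counts, PSBS (DN34330_c2_g1), a sensor for the safe loss of excess light energy as heat, had 1660, 1806 and 1505 CPM at 4 °C and 1997, 1085 and 1570 CPM at 6 °C. The groups overlapped, and the log2 fold change of 0.10 ± 0.22 did not pass the test (adjusted p = 0.832). Of the 3 that fell, PSAN alone was also called with the 6 libraries fitted alone.

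The gene for the D1 protein of photosystem II, encoded in the chloroplast, had the higher level at 4 °C. psbA (DN43689_c2_g3) had 297, 265 and 213 CPM at 4 °C and 78, 170 and 76.8 CPM at 6 °C, against 179, 168 and 102 CPM at 25 °C. The groups did not overlap, yet the log2 fold change was 1.25 ± 0.40 with an adjusted p of 0.0527, and 1.69 ± 0.41 without replicate 2 (adjusted p = 0.0141), so that psbA was called higher only without that library. Chloroplast transcripts mostly lack long poly(A) tails, and the labels do not say whether polyadenylated RNA was selected.

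Enzymes of chlorophyll synthesis fell in 8 of 29 tested genes (27.6%) and rose in 1, and 6 fell without replicate 2. CHLH (DN49634_c0_g1), the subunit of magnesium chelatase that binds porphyrin, had 28.3, 44.2 and 35.2 CPM at 4 °C, against 87.3, 439 and 114 CPM at 6 °C and 2127, 2305 and 1921 CPM at 25 °C. Replicate 2 at 6 °C was several times the other 2, and the log2 fold change was -2.57 ± 0.43 with it (adjusted p = 0.000841) and -1.53 ± 0.21 without it. CRD1 (DN54145_c0_g1), the cyclase that follows, showed the same shape, with 35, 36.8 and 30.4 CPM at 4 °C and 71, 315 and 63.3 CPM at 6 °C. It fell by 2.13 ± 0.42 (adjusted p = 0.00337), with -1.02 ± 0.18 when replicate 2 was left out. GLUTRBP (DN52318_c0_g1), a partner of glutamyl-tRNA reductase at the entry of the pathway, had 19.6, 15.1 and 17.9 CPM at 4 °C and 44.4, 52.2 and 44.6 CPM at 6 °C, and fell by 1.42 ± 0.17 (adjusted p = 4.6e-05). The single rise was GSA (DN47947_c2_g5), the enzyme that forms aminolevulinate, with 89.2, 91.2 and 83.8 CPM at 4 °C and 31.9, 38.2 and 38.2 CPM at 6 °C, a log2 fold change of 1.29 ± 0.23 (adjusted p = 0.00175). GLUTRBP held its call with the 6 libraries fitted alone, whereas CHLH, CRD1 and GSA did not. CRD1 and GSA were chosen after their values were seen.

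For chlorophyll breakdown 4 of 19 tested genes fell (21.1%) and 1 rose, and 3 fell and 1 rose without replicate 2. Chlorophyllase-1 (DN46675_c1_g2), which removes the phytol tail of chlorophyll, had 6.08, 2.67 and 3.87 CPM at 4 °C and 20.9, 33.4 and 27.7 CPM at 6 °C, and fell by 2.69 ± 0.32 (adjusted p = 4.27e-05). STAY-GREEN (DN38584_c0_g5), which takes magnesium out of chlorophyll, had 106, 151 and 166 CPM at 4 °C and 73.2, 26.6 and 375 CPM at 6 °C. The 4 °C libraries lay within the range of the 6 °C libraries, and the log2 fold change of -0.17 ± 0.65 did not pass the test (adjusted p = 0.915). In the Calvin cycle 1 of 26 tested genes fell (2 without replicate 2), the chloroplast aldolase ALDP (DN53300_c0_g1), with 431, 605 and 378 CPM at 4 °C and 943, 1260 and 1325 CPM at 6 °C (-1.32 ± 0.22, adjusted p = 0.000823). The Rubisco small subunit RBCS (DN57201_c1_g3) had 3505, 4922 and 4159 CPM at 4 °C and 8383, 2599 and 9284 CPM at 6 °C. Replicate 2 was the lowest of these 6 libraries, and RBCS had a log2 fold change of -0.69 ± 0.33 with it (adjusted p = 0.19) and of -1.12 ± 0.19 without it (adjusted p = 0.000882). Among chloroplast redox proteins, thioredoxin M5 (DN48381_c2_g2), which activates Calvin cycle enzymes in the light, had 17.2, 17 and 18.4 CPM at 4 °C and 73.1, 121 and 65.7 CPM at 6 °C and fell by 2.31 ± 0.23 (adjusted p = 1.09e-05). It was called in a list of 126 tested antioxidant and redox genes, of which 17 fell and 1 rose, and 12 fell and 2 rose without replicate 2. Chlorophyllase-1 and thioredoxin M5 kept their calls with the 6 libraries fitted alone, and ALDP did not.

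Aquaporins fell in 22 of 37 tested members (59.5%) and rose in 1, with a median log2 fold change of -2.09. Without replicate 2, 22 fell, none rose and the median was -2.26, and 8 of 31 fell with the 6 libraries fitted alone. In Oregon 10 of the 37 fell. TIP4-4 (DN47504_c0_g4) had 7.78, 4.8 and 7.28 CPM at 4 °C and 37.9, 80.2 and 82.5 CPM at 6 °C, a log2 fold change of -3.33 ± 0.31 (adjusted p = 6.19e-06). TIP2-1 (DN32593_c0_g2), chosen after its values were seen, had 14.1, 9.82 and 8.77 CPM at 4 °C and 90.8, 100 and 96.5 CPM at 6 °C, and fell by 3.14 ± 0.30 (adjusted p = 6.93e-06). Both vacuolar channels had no overlap between the groups, and both were called with the 6 libraries fitted alone. The 6 °C replicates of TIP2-1 were close to each other, whereas those of TIP4-4 ranged from 37.9 to 82.5 CPM. The single rise was TIP1-1 (DN47635_c1_g6), with 47.2, 19.8 and 22.6 CPM at 4 °C and 10.7, 3.51 and 4.46 CPM at 6 °C, a log2 fold change of 2.26 ± 0.70 (adjusted p = 0.0457) that lost its call without replicate 2 (adjusted p = 0.125). TIP1-2 (DN32711_c1_g2) had 32.4, 13.6 and 14.9 CPM at 4 °C and 9.5, 3.64 and 3.41 CPM at 6 °C, and its log2 fold change of 1.88 ± 0.66 did not pass the test (adjusted p = 0.0724). TIP1-1 and TIP1-2 are close relatives whose reads may be divided uncertainly. PIP2-1 (DN42198_c1_g2), the aquaporin with the most counts, had 547, 680 and 521 CPM at 4 °C and 1157, 254 and 467 CPM at 6 °C, with overlapping groups and adjusted p = 0.908.

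Enzymes that loosen or build the cell wall fell in 75 of 213 tested genes (35.2%) and none rose, with a median log2 fold change of -1.72. Without replicate 2, 58 fell, 1 rose and the median was -0.98. The list member with the most counts, XTH30 (DN54999_c0_g3), was not called. It had 119, 162 and 150 CPM at 4 °C and 65.6, 579 and 97.2 CPM at 6 °C, with replicate 2 highest. Its log2 fold change was -0.78 ± 0.53 with replicate 2 (adjusted p = 0.367) and 0.78 ± 0.28 without it (adjusted p = 0.0948). XYL2 (DN39005_c0_g3), a beta-xylosidase of hemicellulose, had 0.0472, 0 and 0.333 CPM at 4 °C and 9.79, 9.41 and 27.6 CPM at 6 °C, and fell by 6.76 ± 0.75 (adjusted p = 2.41e-05). Expansin-B16 (DN38969_c1_g2), of a family that loosens walls, had 1 count at 4 °C in all, against 9.28, 16 and 17.1 CPM at 6 °C. Its ratio of 6 °C to 4 °C counts was 902 (95% counting interval 161 to 35685, adjusted p = 0.00484). Genes for lignin, laccases and class III peroxidases fell in 27 of 64 (42.2%), and in 19 without replicate 2. Laccase-14 (DN42822_c2_g3), the member of that list with the most counts and of a family of copper enzymes that oxidise phenolics, had 0.283, 1.39 and 0.374 CPM at 4 °C, against 185, 199 and 752 CPM at 6 °C. All 6 °C libraries of LAC14 were more than 100 times the highest 4 °C library, and the log2 fold change was -9.14 ± 0.85 (adjusted p = 6.19e-06). XYL2, Expansin-B16 and LAC14 were all called with the 6 libraries fitted alone.

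Proline-rich proteins, of a class found in cell walls, were among the largest falls. PRP4 (DN41666_c0_g2) had 0.472, 0.107 and 0 CPM at 4 °C and 157, 22.3 and 597 CPM at 6 °C, against 3.65, 8.09 and 9.83 CPM at 25 °C. All 6 °C libraries lay above both other temperatures, and PRP4 fell by 10.37 ± 1.21 in the step to 4 °C (adjusted p = 3.52e-05), with -10.97 ± 0.86 without replicate 2, its lowest 6 °C library. TPRP-F1 (DN49672_c0_g3) had 1 count at 4 °C in all, against 1.8, 82.7 and 0.605 CPM at 6 °C, where replicate 2 held nearly all of the signal. The ratio of 6 °C to 4 °C counts was 1646 (95% counting interval 295 to 65052), and the fitted log2 fold change, which at so few counts depends on the prior count, was -10.31 ± 1.89 with replicate 2 (adjusted p = 0.00189) and -5.78 ± 1.20 without it. PRP4 was called with the 6 libraries fitted alone and TPRP-F1 was not (adjusted p = 0.0826).

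**Figure D3:**
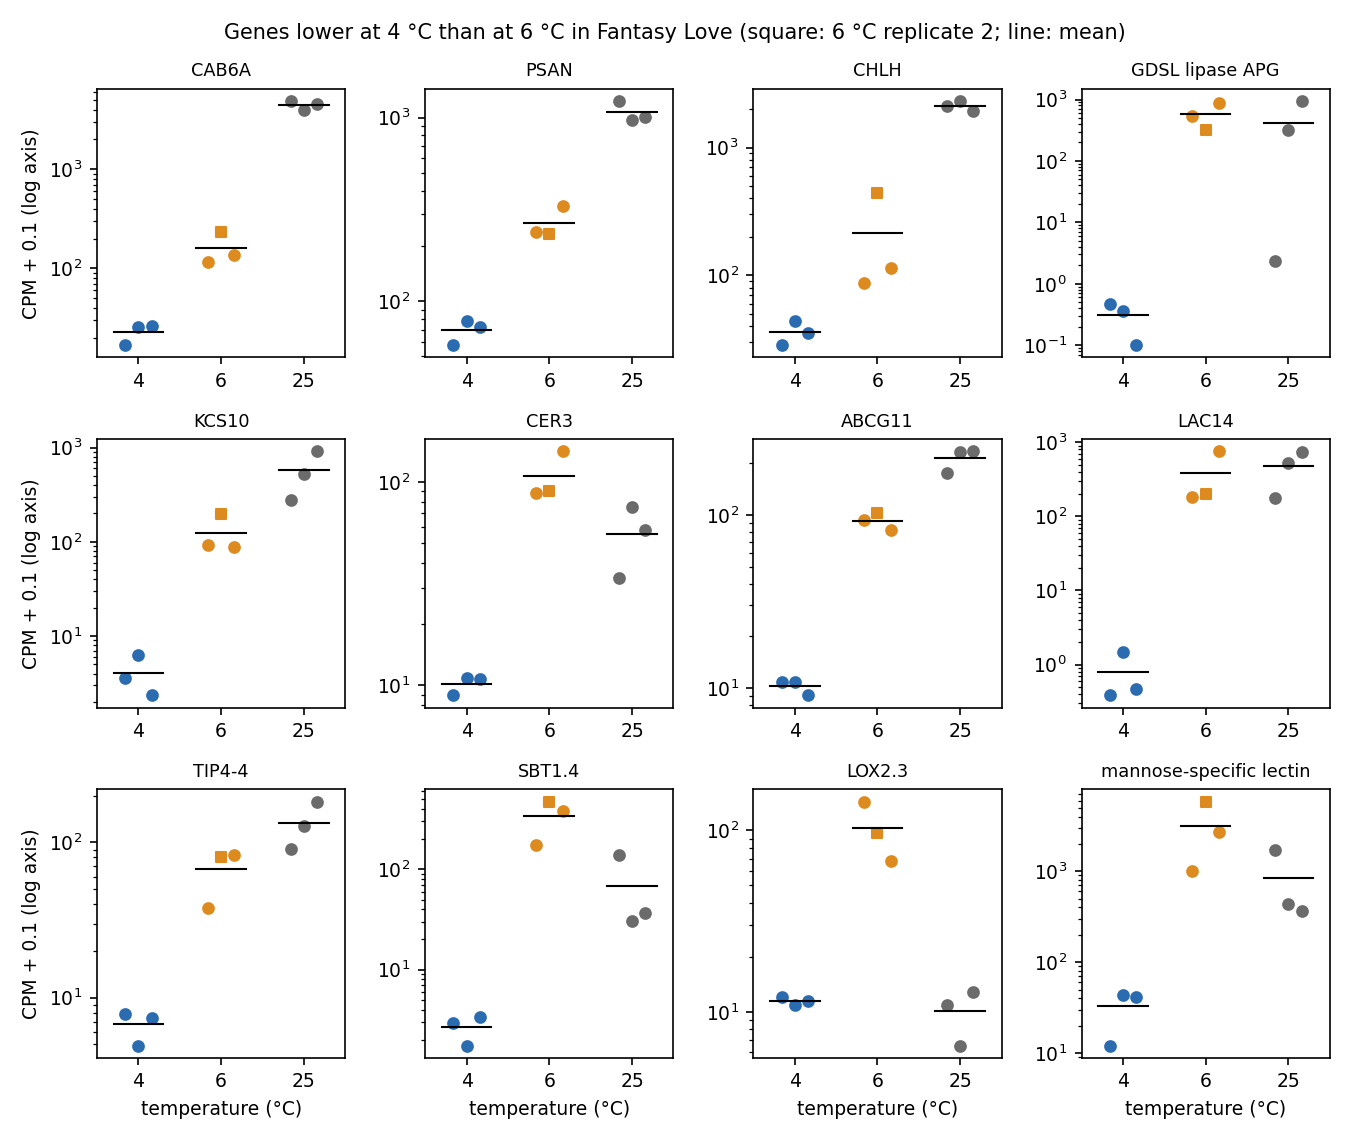
Levels of 12 genes lower at 4 °C than at 6 °C (y axis, CPM + 0.1 on a log axis) by temperature (x axis) in the 9 Fantasy Love libraries; each point is a library, a square marks 6 °C replicate 2 and the line is the group mean. For LAC14 the 4 °C libraries lie between 0.283 and 1.39 CPM and all 6 °C libraries at 185 CPM or more, whereas for CHLH replicate 2 at 439 CPM stands above the other 2 libraries at 6 °C, at 87.3 and 114 CPM.

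Flavonoid and anthocyanin synthesis, the source of red pigment in Anthurium, had 22 of 54 tested genes lower (40.7%) and none higher, with and without replicate 2, and 18 were lower in both fits. The median log2 fold change was -1.70. The anthocyanidin synthase ANS (DN34470_c2_g1) had 21.3, 37.4 and 122 CPM at 4 °C and 261, 209 and 521 CPM at 6 °C, and fell by 2.46 ± 0.51 (adjusted p = 0.00433). The reductase before it, DFR (DN43996_c0_g2), had 4.06, 3.31 and 5.57 CPM at 4 °C and 38.8, 5.58 and 70.6 CPM at 6 °C. Replicate 2 was the lowest 6 °C library and close to the 4 °C libraries, and the log2 fold change of DFR was -3.15 ± 0.62 (adjusted p = 0.00309) with it and -3.71 ± 0.42 without it. Chalcone isomerase (DN53341_c1_g2) had 46.7, 53.7 and 114 CPM at 4 °C and 193, 156 and 274 CPM at 6 °C, a log2 fold change of -1.54 ± 0.36 (adjusted p = 0.00979). The anthocyanidin 3-O-glucosyltransferase RT (DN50538_c0_g2) had 6.23, 4.32 and 4.24 CPM at 4 °C and 19.8, 39 and 17.2 CPM at 6 °C, and fell by 2.36 ± 0.31 (adjusted p = 0.000115). Chalcone synthase CHS1 (DN57370_c2_g1), the entry enzyme, had 227, 412 and 941 CPM at 4 °C and 1563, 991 and 2462 CPM at 6 °C. The groups lay close without overlap, and the log2 fold change of -1.67 ± 0.54 had an adjusted p of 0.0551, or 0.0322 without replicate 2. Of these genes RT alone was called with the 6 libraries fitted alone. ANS, DFR and chalcone isomerase were chosen after their values were seen.

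Proteases and their inhibitors fell in 47 of 108 tested genes (43.5%) and rose in none, with a median log2 fold change of -1.60. Without replicate 2, 36 fell, 3 rose and the median was -0.78. The list member with the most counts was a vacuolar-processing enzyme (DN49168_c0_g1). It had 898, 1088 and 1196 CPM at 4 °C and 1302, 1237 and 1419 CPM at 6 °C. Its log2 fold change of -0.31 ± 0.34 did not pass the test (adjusted p = 0.603). The secreted subtilase SBT1.4 (DN56154_c0_g1) had 2.83, 1.65 and 3.24 CPM at 4 °C and 173, 473 and 383 CPM at 6 °C, and fell by 7.05 ± 0.59 (adjusted p = 3.45e-06). The aspartyl protease AED3 (DN56046_c0_g2) had 2 counts at 4 °C in all and 2.47, 57.9 and 25.7 CPM at 6 °C, a ratio of 6 °C to 4 °C counts of 877 (95% counting interval 242 to 7246, adjusted p = 0.000408). A second subtilase, SBT1.5 (DN39092_c0_g5), had 3.16, 10.8 and 45.2 CPM at 4 °C and 0.337, 2770 and 0.715 CPM at 6 °C. All of the 6 °C signal of SBT1.5 lay in replicate 2, and its log2 fold change was -5.55 ± 1.9 with that library (adjusted p = 0.0668) and 5.18 ± 1.12, in the opposite direction, without it (adjusted p = 0.0065). A trypsin/chymotrypsin inhibitor (DN44823_c0_g1), which that list does not hold, had 16.7, 20.5 and 27.3 CPM at 4 °C and 611, 3489 and 1827 CPM at 6 °C, and fell by 6.52 ± 0.64 (adjusted p = 8.85e-06), with -5.87 ± 0.56 without replicate 2. SBT1.4, AED3 and the inhibitor were called with the 6 libraries fitted alone.

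The genes named by the rule included 2 mannose-binding lectins, both of which fell. A mannose-specific lectin (DN39311_c0_g2) had 12, 44 and 41.5 CPM at 4 °C and 1010, 5830 and 2684 CPM at 6 °C, and fell by 6.61 ± 0.84 (adjusted p = 8.86e-05), with -5.87 ± 0.76 when replicate 2 was left out. Such lectins are storage and defence proteins of aroids and other monocots. A second mannose-binding lectin (DN43832_c1_g5) had 0.141, 0 and 0.0416 CPM at 4 °C and 200, 24.7 and 83.8 CPM at 6 °C, a log2 fold change of -10.54 ± 1.14 (adjusted p = 2e-05). MLP423 (DN31537_c0_g1), a relative of the pathogenesis-related class 10 proteins, had 0.141, 0 and 0.166 CPM at 4 °C and 76, 25.1 and 203 CPM at 6 °C, and fell by 9.79 ± 1.04 (adjusted p = 1.66e-05). Of 76 tested pathogenesis-related and salicylate genes, 31 fell (40.8%) and none rose, with 25 lower and 1 higher without replicate 2. The beta-1,3-glucanase 7 (DN43305_c0_g1) had 37.6, 43.1 and 36.1 CPM at 4 °C and 112, 154 and 137 CPM at 6 °C, a log2 fold change of -1.79 ± 0.18 (adjusted p = 9.66e-06). Chitinase-like protein 1 (DN49468_c1_g1), known in Arabidopsis for its part in cellulose formation, had 339, 380 and 431 CPM at 4 °C and 621, 1122 and 768 CPM at 6 °C. It fell by 1.13 ± 0.24 (adjusted p = 0.00584) and lost its call without replicate 2 by the fold minimum, with a log2 fold change of -0.90 ± 0.21. Both lectins, MLP423 and the glucanase were called with the 6 libraries fitted alone.

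Among desaturases, lipases and membrane lipid enzymes 48 of 157 tested genes fell (30.6%) and 1 rose, and 42 fell without replicate 2. The delta-12 desaturase (DN37542_c0_g1), which puts the second double bond into oleic acid, had 31.8, 25.5 and 24 CPM at 4 °C and 196, 518 and 92.5 CPM at 6 °C, and fell by 3.31 ± 0.43 (adjusted p = 0.000105), with -2.46 ± 0.27 when replicate 2 was left out. It was chosen after its values were seen. FAD7 (DN33719_c0_g1), the chloroplast desaturase that makes trienoic fatty acids, had 235, 370 and 440 CPM at 4 °C and 273, 136 and 677 CPM at 6 °C, with the 4 °C libraries inside the 6 °C range and adjusted p = 0.967. The GDSL esterase At1g54790 (DN44458_c0_g1) had 4.34, 4.53 and 6.49 CPM at 4 °C and 20.4, 20.3 and 29.4 CPM at 6 °C, a log2 fold change of -2.19 ± 0.24 (adjusted p = 2.61e-05). Of 53 tested jasmonate genes 11 fell, the lipoxygenases among them (20.8%, against 7.19% of all genes), and none rose. Without replicate 2, 9 fell and none rose. LOX2.3 (DN34003_c1_g1), which starts the route to jasmonate in the chloroplast, had 12, 10.8 and 11.3 CPM at 4 °C and 144, 97.1 and 67.9 CPM at 6 °C, against 10.8, 6.41 and 12.8 CPM at 25 °C. The 4 °C libraries lay within the range of the 25 °C libraries, and LOX2.3 fell by 3.18 ± 0.37 in this step (adjusted p = 3.52e-05). LOX2-1 (DN55215_c3_g3), chosen after its values were seen, had 20.5, 24 and 23 CPM at 4 °C, 200, 155 and 122 CPM at 6 °C and 24, 12.7 and 28.3 CPM at 25 °C, with adjusted p = 8.3e-05 for 4 °C against 6 °C. The repressor TIFY 6B (DN51025_c1_g1) had 255, 289 and 182 CPM at 4 °C and 540, 401 and 309 CPM at 6 °C, and its log2 fold change of -0.78 ± 0.25 stayed under the fold minimum (adjusted p = 0.0475). The desaturase, At1g54790 and both lipoxygenases were called with the 6 libraries fitted alone.

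Auxin genes fell in 25 of 125 tested members (20%) and rose in 8, and 23 fell and 4 rose without replicate 2. LAX3 (DN42557_c0_g2), a carrier that takes auxin into cells, had 0.283, 0.48 and 0.291 CPM at 4 °C, against 11.7, 24.5 and 36.3 CPM at 6 °C and 188, 184 and 353 CPM at 25 °C. The 3 temperatures did not overlap, with 25 °C highest, and LAX3 fell by 6.10 ± 0.46 in the last step (adjusted p = 1.16e-06). IAA16 (DN39264_c0_g1), a repressor of auxin response chosen after its values were seen, had 5.38, 3.89 and 3.49 CPM at 4 °C and 27.2, 59.1 and 69.5 CPM at 6 °C, a log2 fold change of -3.61 ± 0.32 (adjusted p = 3.63e-06). ABP19a (DN37343_c0_g6), an apoplastic germin-like protein named for auxin binding in peach, had 1.37, 1.44 and 3.37 CPM at 4 °C and 395, 165 and 1852 CPM at 6 °C. Its 6 °C libraries spanned more than 10-fold, all of them above the 4 °C libraries, and ABP19a fell by 8.59 ± 0.86 (adjusted p = 9.66e-06). LAX3, IAA16 and ABP19a were called with the 6 libraries fitted alone.

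Transporters of nutrients and ions fell in 34 of 125 tested genes (27.2%) and rose in 1, and 33 fell and 1 rose without replicate 2. NAR2.1 (DN36293_c0_g4), which nitrate transporters need to reach the plasma membrane, had 20.7, 22.2 and 19.4 CPM at 4 °C and 108, 101 and 139 CPM at 6 °C, a log2 fold change of -2.48 ± 0.20 (adjusted p = 2.71e-06). The potassium channel AKT1 (DN49735_c1_g1), chosen after its values were seen, had 13.3, 16.3 and 18.8 CPM at 4 °C and 38.8, 122 and 117 CPM at 6 °C, and fell by 2.52 ± 0.35 (adjusted p = 0.000187). Calcium signalling genes fell in 37 of 209 (17.7%) and rose in 2, and 25 fell and none rose without replicate 2. The annexin RJ4 (DN43739_c0_g3), of a family that binds membranes with calcium, had 0.896, 0.64 and 1.12 CPM at 4 °C and 29.1, 67.5 and 17.1 CPM at 6 °C, and fell by 5.40 ± 0.46 (adjusted p = 3.63e-06), with -4.72 ± 0.34 when replicate 2 was left out. In mitochondrial respiration 25 of 120 tested genes fell (20.8%), and 15 without replicate 2. The alternative oxidase AOX1A (DN41826_c0_g1), which bypasses the later proton pumps and was chosen after its values were seen, had 25.2, 31.8 and 23.2 CPM at 4 °C, against 68.1, 131 and 159 CPM at 6 °C and 3.21, 0.706 and 0.447 CPM at 25 °C. It fell by 2.16 ± 0.43 from 6 °C (adjusted p = 0.00375), with all 4 °C libraries still above those at 25 °C. NAR2.1, AKT1, RJ4 and AOX1A were called with the 6 libraries fitted alone.

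Other transcripts with many counts that fell came from detoxification and metal binding. The type 2 metallothionein (DN41491_c0_g7), a small cysteine-rich protein that binds metals, had 369, 391 and 417 CPM at 4 °C and 1564, 2986 and 1531 CPM at 6 °C, and fell by 2.37 ± 0.26 (adjusted p = 2.27e-05). The oxalate-CoA ligase AAE3 (DN46767_c0_g1), which begins the breakdown of oxalate, had 398, 479 and 491 CPM at 4 °C and 1038, 2135 and 1248 CPM at 6 °C, a log2 fold change of -1.69 ± 0.29 (adjusted p = 0.00114). A glutathione S-transferase (DN51445_c0_g1), of a family that conjugates toxic compounds to glutathione, had 72.4, 40.2 and 40.5 CPM at 4 °C, against 356, 948 and 250 CPM at 6 °C and 14.6, 7.71 and 1.72 CPM at 25 °C. It fell by 3.34 ± 0.59 from 6 °C (adjusted p = 0.00146), with -2.62 ± 0.51 when replicate 2 was left out. All its 4 °C libraries lay above those at 25 °C. Of 32 tested glutathione transferases 6 fell (18.8%) and none rose, and 5 fell without replicate 2. Among regulators, the CONSTANS-like protein COL4 (DN50846_c0_g4) had 4.48, 5.01 and 3.99 CPM at 4 °C and 22.6, 24.7 and 24.8 CPM at 6 °C and fell by 2.42 ± 0.22 (adjusted p = 5.62e-06). NAC083 (DN38199_c1_g5), the called gene with the lowest adjusted p of 55 tested NAC factors, 12 of which fell (6 without replicate 2) and none of which rose, had 4.48, 5.07 and 5.57 CPM at 4 °C and 35.7, 43.8 and 19.3 CPM at 6 °C (-2.70 ± 0.31, adjusted p = 3.25e-05). The metallothionein, the glutathione transferase, COL4 and NAC083 were called with the 6 libraries fitted alone, and AAE3 was not.

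No cold regulator or heat stress factor was called higher in this step, although 1 and 4 of them were higher at an unadjusted p below 0.05 and DESeq2's Wald test called 0 and 2. Of 10 tested CBF, DREB and ICE1 genes 4 fell (40%), with and without replicate 2, and none rose. ICE1 (DN53571_c0_g3), a bHLH factor that switches on CBF genes in Arabidopsis and also acts in stomatal development there, had 0, 0.16 and 0.166 CPM at 4 °C and 0.787, 7.01 and 1.6 CPM at 6 °C, and fell by 4.75 ± 0.80 (adjusted p = 0.000975), with -3.41 ± 0.63 when replicate 2, its highest 6 °C library, was left out. DREB2B (DN53016_c0_g1), the member with the most counts, had 85.3, 95.3 and 92.3 CPM at 4 °C and 143, 336 and 145 CPM at 6 °C, against 2.49, 0.978 and 0.447 CPM at 25 °C. The 4 and 6 °C groups did not overlap, but the log2 fold change of -1.19 ± 0.42 did not pass the test (adjusted p = 0.0738). Of 25 tested heat stress factors 1 fell, HSFA2B (DN35567_c1_g1), with 0.283, 0.587 and 0.541 CPM at 4 °C and 1.8, 57.1 and 22.6 CPM at 6 °C (-5.83 ± 0.92, adjusted p = 0.000553, and -4.73 ± 0.82 without replicate 2). COR413PM2 (DN38357_c2_g3), a membrane protein named for cold induction in cereals and Arabidopsis, had 15.3, 16.2 and 14.9 CPM at 4 °C and 35.7, 57.8 and 39.8 CPM at 6 °C, against 67, 77.4 and 88.5 CPM at 25 °C, and fell by 1.52 ± 0.20 (adjusted p = 0.000108). The ethylene-forming oxidase ACO1 (DN50246_c0_g1) had 456, 1117 and 1040 CPM at 4 °C and 703, 302 and 2160 CPM at 6 °C, against 2.93, 2.93 and 1.72 CPM at 25 °C. Its 4 and 6 °C libraries overlapped widely (adjusted p = 0.809), and of 30 tested ethylene genes 2 fell (6.67%), or 3 without replicate 2. None of ICE1, HSFA2B and COR413PM2 was called with the 6 libraries fitted alone.

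Protective proteins were among the genes that rose. Dehydrin COR410 (DN40128_c2_g5), a hydrophilic protein thought to shield membranes during freezing, had 1663, 2380 and 2222 CPM at 4 °C, against 664, 296 and 599 CPM at 6 °C and 84.3, 103 and 68.2 CPM at 25 °C. The 3 temperatures did not overlap, and COR410 rose by 2.01 ± 0.32 in the last step (adjusted p = 0.000557), or 1.68 ± 0.28 without replicate 2. It is 1 of 10 tested dehydrin and LEA genes, of which 2 rose and 3 fell, and 1 rose and 1 fell without replicate 2. LEA5 (DN52422_c2_g1) had 514, 836 and 633 CPM at 4 °C and 607, 561 and 1085 CPM at 6 °C, with overlapping groups and adjusted p = 0.832. The type 3 metallothionein (DN44768_c0_g4) had 4867, 3864 and 2341 CPM at 4 °C and 408, 1752 and 443 CPM at 6 °C. Replicate 2 was the highest 6 °C library and still below every 4 °C library, and the gene rose by 2.09 ± 0.44 with it (adjusted p = 0.0051) and by 3.07 ± 0.31 without it. The type 3 metallothionein was thus higher at 4 °C where the type 2 one was lower. COR410 had an adjusted p of 0.0549 with the 6 libraries fitted alone, and the type 3 metallothionein 0.178.

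In the raffinose family 4 of 14 tested genes rose (28.6%, against 1.83% of all genes) and 1 fell, and 4 rose and none fell without replicate 2. The list as a whole did not rise. Its median log2 fold change was -0.17, and -0.32 without replicate 2. Its summed share of the counts was 0.256% ± 0.0461 at 4 °C and 0.253% ± 0.19 at 6 °C (SD, n = 3 each). Galactinol synthase 1 (DN44247_c0_g4), which makes the galactose donor of these sugars, had 148, 206 and 107 CPM at 4 °C, against 14.2, 29 and 14.8 CPM at 6 °C and 247, 170 and 129 CPM at 25 °C. The 4 °C libraries overlapped with the 25 °C libraries, and this group rose by 2.99 ± 0.33 (adjusted p = 2.38e-05), a call that held with the 6 libraries fitted alone. A second group with the same name (DN52329_c1_g3) had 418, 692 and 531 CPM at 4 °C, 242, 550 and 1517 CPM at 6 °C and 28.8, 34.7 and 20.6 CPM at 25 °C. Its 4 and 6 °C libraries overlapped (adjusted p = 0.512). Stachyose synthase (DN52921_c0_g1), which adds a further galactose to raffinose, had 102, 118 and 114 CPM at 4 °C and 32.3, 3.44 and 18.5 CPM at 6 °C, and rose by 2.62 ± 0.56 (adjusted p = 0.00593). The galactinol-sucrose galactosyltransferase (DN48583_c0_g2), which forms raffinose, had 128, 181 and 153 CPM at 4 °C and 161, 354 and 640 CPM at 6 °C, and its log2 fold change of -1.32 ± 0.45 did not pass the test (adjusted p = 0.0659). Stachyose synthase had an adjusted p of 0.101 with the 6 libraries fitted alone.

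Large chaperones and co-chaperones rose in 9 of 116 tested genes (7.76%) and fell in 3, with 7 and 2 without replicate 2. A mitochondrial HSP70 (DN55199_c0_g2) had 71.7, 54.9 and 51.9 CPM at 4 °C and 12.3, 4.54 and 2.75 CPM at 6 °C, against 23.9, 8.74 and 38 CPM at 25 °C, and rose by 3.19 ± 0.58 (adjusted p = 0.00181). HSP70-14 (DN48579_c0_g2) had 81.7, 90.8 and 89.4 CPM at 4 °C and 26.6, 15.3 and 34.6 CPM at 6 °C, a log2 fold change of 1.78 ± 0.34 (adjusted p = 0.00249). CLPB3 (DN37785_c2_g4), which takes apart protein aggregates in chloroplasts, had 137, 129 and 120 CPM at 4 °C and 71.1, 31.7 and 47.3 CPM at 6 °C, and rose by 1.36 ± 0.30 (adjusted p = 0.00726). In all 3 the 4 °C replicates were close and the groups did not overlap. The chloroplast co-chaperone DNAJ20 (DN45634_c0_g2) had 1.13, 0.267 and 0.956 CPM at 4 °C and 5.12, 11.9 and 5.5 CPM at 6 °C, and fell by 3.23 ± 0.53 (adjusted p = 0.000802). Of 36 tested small heat shock proteins 1 rose and 1 fell, and without replicate 2 none fell. The one that rose, HSP17.5 (DN45800_c0_g1), had 3.73, 8 and 4.53 CPM at 4 °C and 1.69, 1.82 and 0.88 CPM at 6 °C (1.89 ± 0.34, adjusted p = 0.00184). At an unadjusted p below 0.05 by edgeR's test, 9 genes of the list were higher and 1 lower. The median log2 fold change of the list was 0.68, and 0.35 without replicate 2. Its summed share was 0.893% ± 0.0691 at 4 °C and 0.467% ± 0.298 at 6 °C, without overlap (SD, n = 3 each, 2-sided exact permutation p = 0.1). The member with the most counts, the mitochondrial 23.6 kDa protein (DN46798_c1_g4), had 1314, 1717 and 1277 CPM at 4 °C and 718, 427 and 1729 CPM at 6 °C, with overlapping groups and adjusted p = 0.436. Both HSP70 genes were called with the 6 libraries fitted alone. HSP70-14 and CLPB3 were chosen after their values were seen.

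Abscisic acid genes rose in 8 of 90 tested members (8.89%) and fell in 4, but without replicate 2 the counts were 2 and 2. SAPK7 (DN53561_c0_g3), a kinase of the SnRK2 family that acts in osmotic stress and abscisic acid signalling, had 252, 231 and 198 CPM at 4 °C, against 41.8, 99.7 and 69.5 CPM at 6 °C and 10.8, 25 and 5.23 CPM at 25 °C. It rose by 1.69 ± 0.39 (adjusted p = 0.00967), and by 1.98 ± 0.41 without replicate 2. CYP707A7 (DN52750_c3_g1), an enzyme that breaks down abscisic acid and was chosen after its values were seen, had 11.3, 13.1 and 11.6 CPM at 4 °C and 2.98, 1.88 and 4.51 CPM at 6 °C, and rose by 1.94 ± 0.44 (adjusted p = 0.00854). The phosphatase PP2C 26 (DN41812_c2_g1) had 39.1, 38.6 and 33.4 CPM at 4 °C and 16.1, 10.7 and 19.4 CPM at 6 °C, a log2 fold change of 1.27 ± 0.24 (adjusted p = 0.00242). None of the 3 was called with the 6 libraries fitted alone.

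Receptors, light sensors and regulators made up much of the remaining list of large rises. Phytochrome B (DN55054_c0_g1), the stable red light receptor that also senses temperature in Arabidopsis, had 8.44, 11.5 and 10.5 CPM at 4 °C and 2.81, 0.844 and 1.6 CPM at 6 °C, and rose by 2.53 ± 0.38 (adjusted p = 0.000366). The clock factor CCA1 (DN36058_c1_g3), chosen after its values were seen, had 23.9, 31.3 and 23.9 CPM at 4 °C and 13.2, 15.3 and 8.69 CPM at 6 °C, a log2 fold change of 1.09 ± 0.22 (adjusted p = 0.00368). Its relative LHY (DN52605_c1_g1) had 57.9, 55 and 61 CPM at 4 °C and 46.6, 75 and 32.8 CPM at 6 °C, with overlapping groups and adjusted p = 0.715. In the list of 60 tested clock and light genes 3 rose and 12 fell (5% and 20%), and 3 rose and 9 fell without replicate 2. Both CCA1 and LHY cycle over the day in Arabidopsis, and the collection time of the groups cannot be told apart from temperature. The phytosulfokine receptor PSKR2 (DN49851_c1_g3) had 97.2, 130 and 116 CPM at 4 °C and 41.8, 5.71 and 33.1 CPM at 6 °C, and rose by 2.09 ± 0.49 (adjusted p = 0.00996). The kinase At5g20050 (DN38647_c1_g2) had 16.7, 30.8 and 25.7 CPM at 4 °C and 4.56, 2.66 and 6.44 CPM at 6 °C, a log2 fold change of 2.42 ± 0.44 (adjusted p = 0.00195). MLO2 (DN54730_c0_g1), a membrane protein known for mildew susceptibility in Arabidopsis, had 24.4, 23.4 and 23.8 CPM at 4 °C and 2.64, 3.83 and 3.25 CPM at 6 °C. Its replicates were the closest of this set, and MLO2 rose by 2.88 ± 0.26 (adjusted p = 5.39e-06). MLO2 and At5g20050 were called with the 6 libraries fitted alone, and phytochrome B, CCA1 and PSKR2 were not.

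Among transcription factors, BLH2 (DN55433_c0_g2), of the BEL1-like homeodomain family, had 92.5, 147 and 103 CPM at 4 °C and 4.11, 35.8 and 3.19 CPM at 6 °C, a log2 fold change of 2.99 ± 0.69 (adjusted p = 0.00908) that was 4.92 ± 0.53 without replicate 2. IBH1 (DN45493_c0_g2), a bHLH protein that restrains cell elongation in Arabidopsis, had 16.5, 25.8 and 16 CPM at 4 °C and 0.844, 6.3 and 0.935 CPM at 6 °C, and rose by 2.86 ± 0.65 (adjusted p = 0.00827), or by 4.39 ± 0.61 without replicate 2. For both genes replicate 2 was the high library at 6 °C. The homeobox factor ATHB-13 (DN38116_c0_g1) had 133, 227 and 318 CPM at 4 °C and 82.9, 24.4 and 120 CPM at 6 °C, a log2 fold change of 1.58 ± 0.40 (adjusted p = 0.0174). The condensin subunit CAPH2 (DN44331_c0_g1), part of a complex that compacts chromosomes, had 111, 171 and 147 CPM at 4 °C and 27.1, 5 and 24.6 CPM at 6 °C, and rose by 2.92 ± 0.41 (adjusted p = 0.000207). A terpineol synthase (DN33106_c0_g1), which makes a volatile terpene alcohol, had 27.2, 19.6 and 5.2 CPM at 4 °C and 1.86, 2.47 and 2.2 CPM at 6 °C, against 217, 184 and 84.1 CPM at 25 °C. It rose by 2.99 ± 0.56 (adjusted p = 0.00217) yet stayed below every 25 °C library. A transcript group named after the tRNA-modifying protein TYW2/3/4 (DN53269_c1_g2) had 1097, 1477 and 1328 CPM at 4 °C and 413, 224 and 423 CPM at 6 °C, a log2 fold change of 1.88 ± 0.30 (adjusted p = 0.000559). Its levels ran nearly parallel to those of COR410, at 1663, 2380 and 2222 CPM at 4 °C and 664, 296 and 599 CPM at 6 °C. Whether TYW2/3/4 and COR410 share reads was not tested, so its rise may not be separate from that of COR410. The chloroplast light-induced protein (DN42262_c0_g2), of a family of plastid lipid-associated proteins, had 304, 309 and 331 CPM at 4 °C and 122, 211 and 138 CPM at 6 °C, and rose by 1.0 ± 0.22 (adjusted p = 0.00758). Of these genes TYW2/3/4 alone was called with the 6 libraries fitted alone.

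**Figure D4:**
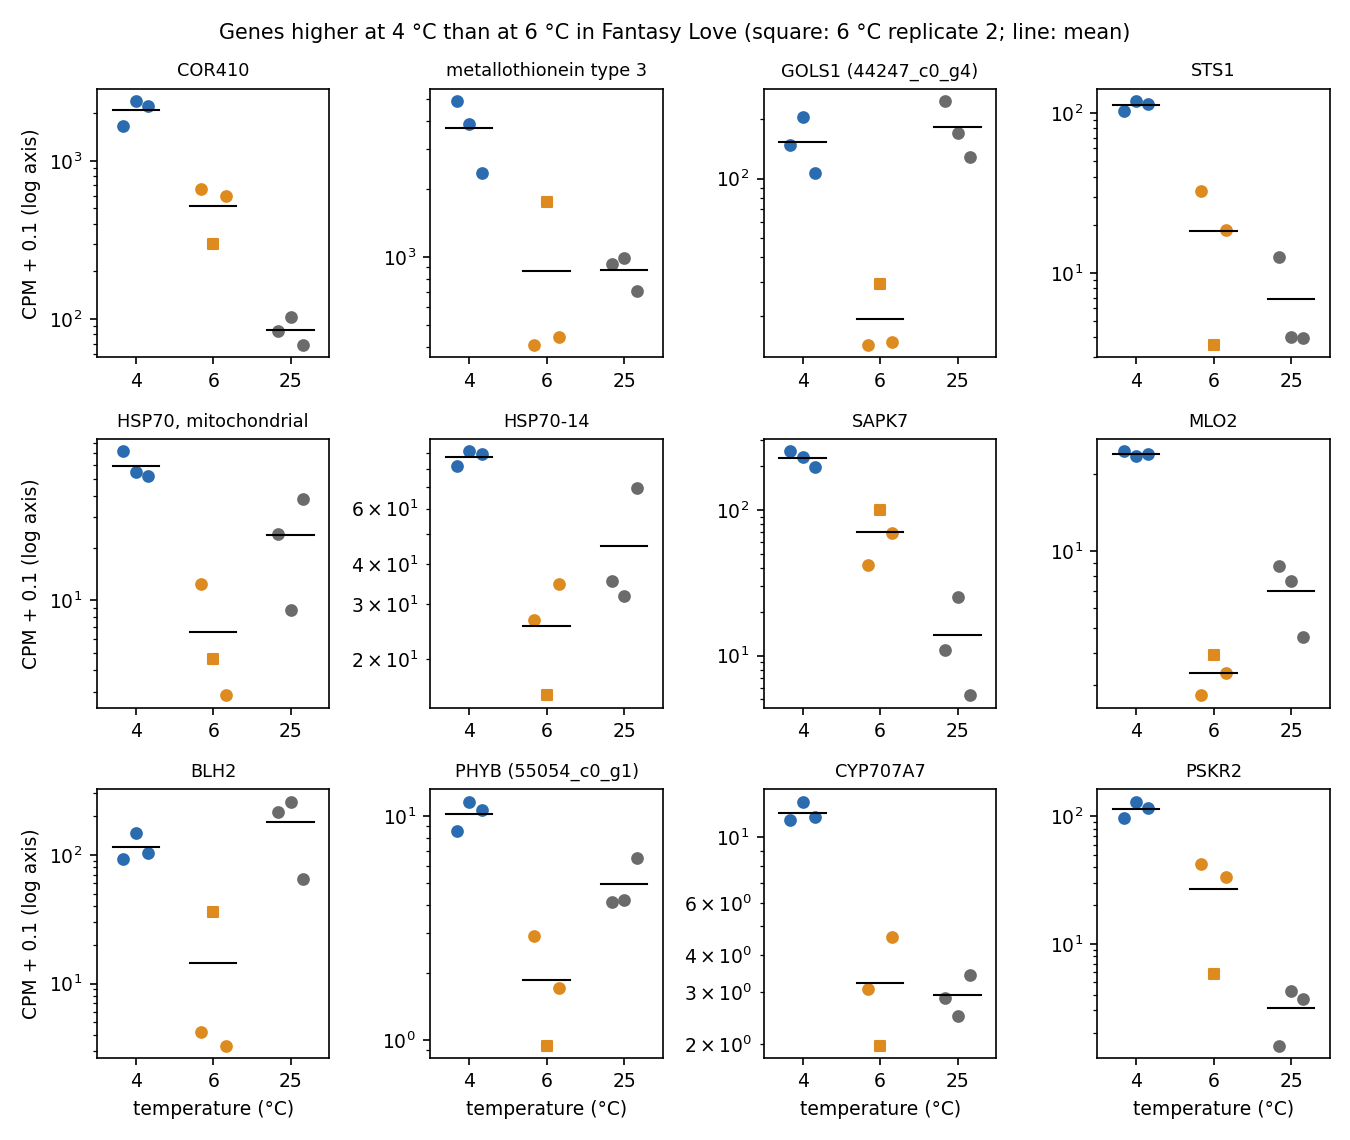
Levels of 12 genes higher at 4 °C than at 6 °C (y axis, CPM + 0.1 on a log axis) by temperature (x axis) in the 9 Fantasy Love libraries; each point is a library, a square marks 6 °C replicate 2 and the line is the group mean. COR410 lies at 1663 CPM or more in the 4 °C libraries and at 664 CPM or less in those at 6 °C.

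The calls in some groups depended on replicate 2. Cytosolic ribosomal protein genes fell in 24 of 275 tested members (8.73%) with all libraries and in 2 without replicate 2, and the median log2 fold change of the list was -0.34 with that library and 0.09 without it. RPL44 (DN40526_c1_g1) had 42.4, 31.5 and 44.4 CPM at 4 °C and 74.2, 171 and 67.6 CPM at 6 °C, with replicate 2 the highest. Its log2 fold change was -1.40 ± 0.27 with replicate 2 (adjusted p = 0.00293) and -0.89 ± 0.17, under the fold minimum, without it. Of 112 tested proteasome and autophagy genes 8 fell with all libraries and none without replicate 2 by edgeR, while 33 were lower at an unadjusted p below 0.05 with all libraries and DESeq2's Wald test called 11. In the set as a whole, 1411 lower and 553 higher genes were called only with replicate 2, and 495 lower and 189 higher genes only without it.

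Among the genes with the highest CPM that were called only with replicate 2, the ADP-ribosylation factor ARF2 (DN50226_c2_g3), a regulator of vesicle traffic, had 457, 485 and 406 CPM at 4 °C and 546, 1496 and 804 CPM at 6 °C, and fell by 1.08 ± 0.28 (adjusted p = 0.0181), with -0.64 ± 0.20 when replicate 2 was left out. The TAR1 group (DN57368_c1_g4), named like ribosomal RNA, had 1211, 1248 and 1338 CPM at 4 °C and 1239, 21045 and 1434 CPM at 6 °C. A single library carried that difference, with a log2 fold change of -2.64 ± 0.80 with replicate 2 (adjusted p = 0.0411) and -0.12 ± 0.46 without it. On the higher side stood an alpha/beta hydrolase (DN52082_c0_g1) with 543, 754 and 670 CPM at 4 °C and 256, 265 and 444 CPM at 6 °C (1.03 ± 0.23, and 0.86 ± 0.23 without replicate 2). The SUMO-conjugating enzyme SCE1 (DN49768_c0_g1) had 352, 317 and 372 CPM at 4 °C and 175, 116 and 200 CPM at 6 °C (1.08 ± 0.21, and 0.84 ± 0.17 without replicate 2). A DUF2215 protein (DN55827_c1_g4) had 222, 303 and 284 CPM at 4 °C and 116, 69.7 and 209 CPM at 6 °C (1.04 ± 0.28, and 0.69 ± 0.23 without replicate 2). In these last 3 genes replicate 2 was not a marked outlier, and the groups did not overlap. Called only without replicate 2 were, besides psbA, RBCS, CHS1 and SBT1.5, the mitochondrial chaperonin CPN60-2 (DN54573_c0_g2) and a putative methyltransferase (DN41668_c0_g2). CPN60-2 had 313, 234 and 232 CPM at 4 °C and 123, 272 and 122 CPM at 6 °C (0.59 ± 0.27, and 1.04 ± 0.20 without replicate 2). The methyltransferase had 279, 337 and 437 CPM at 4 °C and 592, 511 and 993 CPM at 6 °C (-0.99 ± 0.34, and -1.22 ± 0.34 without replicate 2).

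Fewer genes were called for the same step in Oregon. There 682 genes fell and 470 rose at 4 °C against 6 °C (1.32% and 0.91% of 51670), and the median over all genes was 0.00. The difference between the cultivars' steps was tested as an interaction, the log2 fold change in Fantasy Love minus that in Oregon. It was called for 1849 genes (3.58%), 1358 with a more negative step in Fantasy Love (2.63%) and 491 with a more positive one (0.95%). Without replicate 2 at 6 °C the counts were 1617 (3.13%) and 581 (1.12%), of which 1176 and 392 were also called with it. By list, 15 of 21 antenna genes, 28 of 72 photosystem subunits, 36 of 106 cuticle genes and 24 of 108 protease genes had a more negative step in Fantasy Love. Without replicate 2 the counts of these lists were 13, 32, 35 and 24. Among aquaporins 3 of 37 had a more negative step, or 6 without replicate 2, with 2 more positive in both fits. Among flavonoid genes it was 4 of 54 in both fits.

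Genes of photosynthesis and of the leaf surface were among the called interactions. CAB6A averaged 22.7 ± 5.23 CPM at 4 °C and 162 ± 62.8 CPM at 6 °C in Fantasy Love, and 111 ± 20.4 CPM at 4 °C and 45.2 ± 6.4 CPM at 6 °C in Oregon (SD, n = 3 each). Its interaction was -4.12 ± 0.38 (adjusted p = 2.57e-05), with a step of -2.83 ± 0.28 in Fantasy Love and 1.29 ± 0.27 in Oregon. CHLH averaged 35.9 ± 7.98 CPM at 4 °C and 213 ± 196 CPM at 6 °C in Fantasy Love, and 124 ± 30.3 CPM at 4 °C and 42.4 ± 1.08 CPM at 6 °C in Oregon. Its interaction was -4.12 ± 0.59 (adjusted p = 0.00118), and -3.11 ± 0.29 without replicate 2. LAC14 averaged 0.681 ± 0.613 CPM at 4 °C and 378 ± 323 CPM at 6 °C in Fantasy Love, and 32.4 ± 3.89 CPM at 4 °C and 40.3 ± 15.7 CPM at 6 °C in Oregon, an interaction of -8.83 ± 0.98 (adjusted p = 0.000126). For KCS10 the interaction was -4.89 ± 0.63 (adjusted p = 0.000409), for ABCG11 -2.55 ± 0.29 (adjusted p = 0.000126) and for CER3 -2.98 ± 0.39 (adjusted p = 0.000453). In Oregon the step of these 3 was -0.09 ± 0.42, -0.64 ± 0.20 and -0.42 ± 0.27, none of them called.

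The 4 most positive interactions by the rule for named genes, of NAC047, TIP1-1, TIP1-2 and AAP6, came from genes that fell in Oregon. NAC047 (DN36787_c1_g2) had 6.79, 4.32 and 6.28 CPM at 4 °C and 2.42, 2.4 and 2.31 CPM at 6 °C in Fantasy Love, and 0.966, 0.478 and 0.263 CPM at 4 °C and 19.5, 39.1 and 6.3 CPM at 6 °C in Oregon. The interaction was 6.56 ± 0.95 (adjusted p = 0.00125), while the step in Fantasy Love itself did not pass the test (1.28 ± 0.62, adjusted p = 0.194). TIP1-1 had 2.53, 0.558 and 0.438 CPM at 4 °C and 11.1, 33 and 11.9 CPM at 6 °C in Oregon, and an interaction of 6.29 ± 1.05 (adjusted p = 0.00367). TIP1-2 had 3.44, 0.478 and 1.01 CPM at 4 °C and 6.75, 23.3 and 12.1 CPM at 6 °C in Oregon, and an interaction of 5.01 ± 0.96 (adjusted p = 0.00798). The amino acid permease AAP6 (DN52481_c0_g2) had 11.2, 16.7 and 14.3 CPM at 4 °C and 10.2, 3.9 and 38.8 CPM at 6 °C in Fantasy Love, with overlapping groups, and 1.27, 1.75 and 1.53 CPM at 4 °C and 57.6, 75.2 and 34.9 CPM at 6 °C in Oregon. Its interaction was 4.86 ± 0.83 (adjusted p = 0.00409). CYP707A7 had an interaction of 3.70 ± 0.62 (adjusted p = 0.0037), with a step of -1.76 ± 0.43 in Oregon. The monosaccharide carrier STP13 (DN57281_c1_g1) had 328, 849 and 591 CPM at 4 °C and 183, 91.5 and 555 CPM at 6 °C in Fantasy Love, a step that did not pass the test (1.09 ± 0.49, adjusted p = 0.164), and an interaction of 3.20 ± 0.70 (adjusted p = 0.0167).

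Of the 4 most negative interactions by that rule, those of TPX2 and LECRK44 lost their call without replicate 2 and those of TPRP-F1 and At5g37690 did not. TPRP-F1 had an interaction of -13.41 ± 2.36 (adjusted p = 0.00514), and -8.89 ± 1.42 without replicate 2 (adjusted p = 0.00148). At5g37690 had -9.41 ± 2.18 (adjusted p = 0.0224), and -7.63 ± 1.72 without replicate 2. TPX2 (DN41053_c0_g1), a spindle protein, had 0.707, 0.587 and 0.291 CPM at 4 °C and 0, 63.3 and 0 CPM at 6 °C in Fantasy Love, the whole 6 °C signal lying in replicate 2. Its step was -5.31 ± 1.75 with that library (adjusted p = 0.058) and 6.22 ± 3.39 without it, and its interaction -9.46 ± 2.48 (adjusted p = 0.0412) was 2.07 ± 4.03 without it. The lectin receptor kinase LECRK44 (DN37939_c0_g1) had 0.0472, 0.427 and 0.0832 CPM at 4 °C and 1.74, 279 and 3.25 CPM at 6 °C, again with nearly all signal in replicate 2. It fell by 9.02 ± 1.72 (adjusted p = 0.00253), with -3.79 ± 1.14 when replicate 2 was left out (adjusted p = 0.0467), and its interaction was -9.18 ± 2.31 (adjusted p = 0.0343), or -4.0 ± 1.53 without replicate 2 (adjusted p = 0.163).

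**Figure D5:**
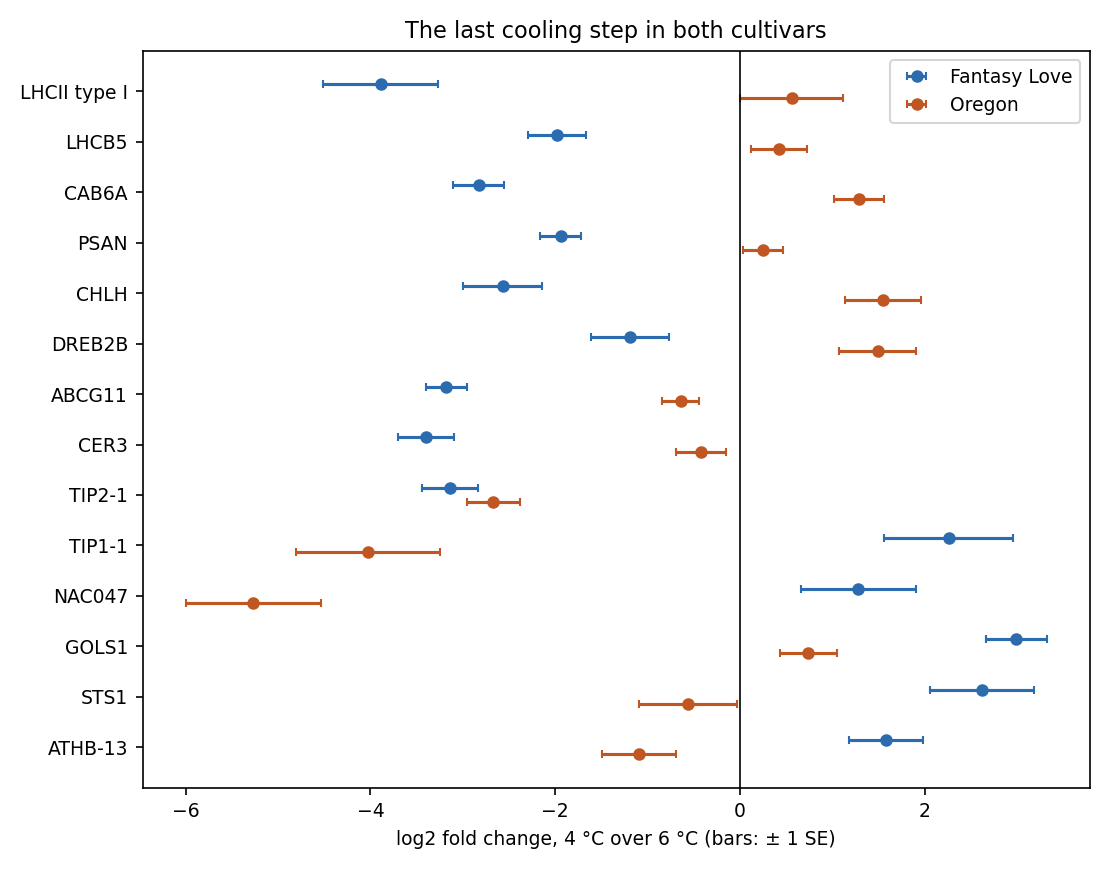
Log2 fold change of 4 °C over 6 °C (x axis, points with bars of ± 1 SE) in Fantasy Love and in Oregon for 14 named genes, with 3 libraries in each group. CAB6A lies at -2.83 in Fantasy Love and 1.29 in Oregon, NAC047 at 1.28 in Fantasy Love and -5.27 in Oregon, and TIP2-1 at -3.14 in Fantasy Love and -2.67 in Oregon.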

How the data were processed

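The 6 Fantasy Love libraries at 4 and 6 °C were analysed within a table of 132108 transcript groups, here called genes, in 18 libraries. The authors deposited estimated counts (expected counts per transcript group, not normalised), which were rounded to whole numbers here. The deposited TPM values, recognised by their sums, and the Length column, in bases per the file headers, were not tested. Reads were trimmed with cutadapt 1.9, per the submitters' processing notes, and the quantification tool is not given in the sources used here. Protein names come from the deposited annotation and rest on similarity to proteins of other species.

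Genes were kept by filterByExpr (minimum count 10, minimum total 15), which left 51670, of which 25020 have a protein name. They were scaled by TMM and fitted with edgeR 4.0.16 (R 4.3.3) as 6 group means over 18 libraries. Quasi-likelihood p-values were Benjamini-Hochberg adjusted over all genes tested, separately for the step in Fantasy Love, the step in Oregon and their difference. Fold changes are log2, 4 °C over 6 °C, with an SE derived from F, as their size over its square root. CPM are counts scaled to the TMM-adjusted library size. Where the 4 °C libraries held no count, the fold is against 3 counts over the group, and with 1 to 3 counts the ratio has a 95% exact interval. Both cover counting error only. Summed shares were compared with exact permutation tests. The model was tested on simulated data.

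Gene lists were made from words in protein names. The libraries, the lists and their corrections were chosen with earlier results of these data known. Named genes are the 12 largest rises and falls and the 6 with the highest CPM of each among called genes with a protein name, at least 10 CPM in the higher group, no overlap and a call also without 6 °C replicate 2, 1 per protein name. To these were added each list's gene with the highest CPM and its called gene with the lowest adjusted p, a panel of 14 genes, the 4 largest interactions in each direction, and the 3 genes with the highest CPM called only with or only without that library in each direction. Others are marked in the text. Of the genes this rule gave, some that were not called are left out of the text. Replicate numbers do not pair the libraries: same-numbered residuals had correlations of 0.0802, -0.0659 and 0.104. Alternatives were DESeq2 1.42.0 size factors and Wald test, quantile scaling with limma 3.58.1, library quality weights, other filters, no fold minimum, the 6 libraries alone, a replicate block, genes with a plant hit, and leaving out each library. Tables used Python 3.11.15, pandas 2.3.3, numpy 2.4.6 and scipy 1.17.1, and figures matplotlib 3.10.9.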

Additional observations from a re-analysis of the deposited data

Results flagged for a closer look

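The step from 6 to 4 °C differed between Fantasy Love and Oregon for 66 of 118 named genes, against 1849 of all 51670 tested (3.58%). XTH30 and the vacuolar-processing enzyme are not counted in the 118. The test was the interaction term of edgeR's quasi-likelihood model, at an adjusted p below 0.05 and a size of at least 1. Many of the 118 were chosen for a call in Fantasy Love and some for a large interaction. A high share was therefore favoured by that choice. Values are the log2 fold change in Fantasy Love minus that in Oregon. More positive in Fantasy Love were NAC047 at 6.56, TIP1-1 at 6.29, TIP1-2 at 5.01, AAP6 at 4.86, CYP707A7 at 3.70, IBH1 at 3.57, the terpineol synthase (DN33106_c0_g1) at 3.48, STP13 at 3.20, stachyose synthase STS1 at 3.18, ATHB-13 at 2.67, PSKR2 at 2.58, MLO2 at 2.40, phytochrome B at 2.36, galactinol synthase GOLS1 (DN44247_c0_g4) at 2.25, SCE1 at 1.34 and the light-induced protein (DN42262_c0_g2) at 1.18. Of these NAC047, TIP1-1, TIP1-2, AAP6, CYP707A7 and STP13 had a called fall in Oregon.

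More negative in Fantasy Love among photosynthesis genes were the LHCII gene (DN35270_c0_g1) at -4.45, CAB8 at -4.31, CAB6A at -4.12, CHLH at -4.12, thioredoxin M5 at -2.75, CRD1 at -2.62, chlorophyllase-1 at -2.58, LHCB5 at -2.40, PSAN at -2.19, GLUTRBP at -1.97, the aldolase ALDP at -1.63 and PSBO at -1.19. Among surface, lipid and wall genes these were TPRP-F1 at -13.41, At5g37690 at -9.41, LAC14 at -8.83, PRP4 (DN41666_c0_g2) at -7.65, APG at -7.12, DIR1 (DN36915_c1_g3) at -6.63, KCS10 at -4.89, XYL2 at -4.72, CER1 at -4.43, LTP1 (DN56766_c0_g1) at -3.36, CER3 at -2.98, ABCG11 at -2.55, the delta-12 desaturase (DN37542_c0_g1) at -2.48, At1g54790 at -2.26 and LOX2.3 at -2.02. Among defence, protease and stress genes they were HSFA2B at -7.69, MLP423 at -6.90, SBT1.4 at -5.79, the trypsin/chymotrypsin inhibitor (DN44823_c0_g1) at -5.51, the mannose-specific lectin (DN39311_c0_g2) at -4.49, ICE1 at -4.44, DNAJ20 at -3.52, the glutathione S-transferase (DN51445_c0_g1) at -3.39, DREB2B at -2.68, AAE3 at -1.95, chitinase-like protein 1 at -1.81, the type 2 metallothionein (DN41491_c0_g7) at -1.47 and COR413PM2 at -1.19. The others were the TPX2 group (DN41053_c0_g1) at -9.46, LECRK44 at -9.18, ABP19a at -7.75, the annexin RJ4 (DN43739_c0_g3) at -5.11, LAX3 at -4.74, IAA16 at -3.32, TIP4-4 at -2.82, NAR2.1 at -2.15, RT at -1.61 and COL4 (DN50846_c0_g4) at -1.33. For DREB2B neither cultivar's own step passed the test, with -1.19 in Fantasy Love (adjusted p = 0.0738) and 1.49 in Oregon (adjusted p = 0.0699). Without replicate 2 at 6 °C, 61 of the 66 interactions were still called, and those of TPX2, LECRK44, DIR1, CER1 and LTP1 were not.

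Genes whose best protein match is mammalian entered the fit with all other genes, and every one of the 6 libraries had a higher share of them than the highest 25 °C library of Fantasy Love (0.00143%). Their share of the counts was 0.0201%, 0.0148% and 0.00156% at 4 °C and 0.00218%, 0.00244% and 0.0153% at 6 °C. The shares did not follow the groups (2-sided exact permutation p = 0.7), and none of the 41 tested genes of this kind was called by edgeR, with 3 higher and 0 lower at an unadjusted p below 0.05 and 1 higher by DESeq2's Wald test.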

How the results depend on the processing

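Lower genes outnumbered higher ones in Fantasy Love under all settings tried, but the counts of 946 higher and 3715 lower varied. Higher were 2661 with quantile scaling and limma, 1940 with DESeq2's Wald test, 320 with library weights, 35 with the 6 libraries alone and 193 with those alone without 6 °C replicate 2. Lower were 1272 with library weights, 428 with the 6 libraries alone and 989 with those alone without 6 °C replicate 2. Leaving out each library gave 464 to 2322 higher and 2255 to 5479 lower. Between cultivars, 1267, 1332 and 932 genes had a more positive step in Fantasy Love with quantile scaling, the Wald test and library weights, against 491, and 2544 a more negative one with the Wald test, against 1358. Leaving out each library gave 151 to 1894 more positive and 576 to 2743 more negative. A replicate block, for numbers that do not pair the libraries, gave 703 higher and 2961 lower, and 300 more positive and 916 more negative between cultivars. The cause of these shifts was not tested.

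Of the 95 named genes called, none changed direction in any setting, and 42 kept their call in every setting. With both fits of the 6 libraries alone set aside, 66 kept it in every setting. Those fits kept 47 with 6 °C replicate 2 and 77 without it. Library weights kept 72, and the fit without 6 °C replicate 2 kept 87. Many of the named genes were chosen for a call, for no overlap or for a call also without that library. Kept calls and directions were therefore favoured by that choice. Genes not called did change direction, XTH30 without 6 °C replicate 2 among them. With quantile scaling STAY-GREEN was at 0.76, RBCS at 0.43, ACO1 at 0.49, the second galactinol synthase (DN52329_c1_g3) at 0.25, FAD7 at 0.45, LEA5 at 0.28, AAP6 at 0.37, SBT1.5 at 0.59 and PIP2-1 at 0.57. With library weights STAY-GREEN was at 0.27, the galactinol synthase at 0.05, FAD7 at 0.04, TPX2 at 2.78, SBT1.5 at 3.81 and PSBS at -0.07. With the replicate block STAY-GREEN was at 0.11 and PIP2-1 at 0.02, and among plant hits alone FAD7 at 0.01. With the 6 libraries alone without 6 °C replicate 2, TPX2 was at 6.41, SBT1.5 at 5.15 and PSBS at -0.14. Leaving out each library gave -0.72 to 1.5 for STAY-GREEN, -0.76 to 0.79 for ACO1, -0.98 to 0.47 for the galactinol synthase, -0.49 to 0.77 for FAD7, -0.40 to 0.18 for LEA5, -0.07 to 0.50 for LHY, -0.85 to 0.99 for AAP6, -6.01 to 6.22 for TPX2, -10.15 to 2.07 for its interaction, -7.06 to 5.18 for SBT1.5, -0.15 to 0.25 for PSBS and -0.52 to 0.62 for PIP2-1.

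Each group has 3 libraries, 1 of which stood apart at 6 °C, so folds that rest on it are imprecise. At 14769909 to 21027917 counts a library, a gene near 0.1 CPM has few counts, and folds against such levels are lower bounds or have wide intervals. Names by similarity and an assembly without a genome leave the division of reads among close relatives uncertain.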

Other observations

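The shares of further gene lists were not tested against those of all genes, which were 7.19% lower and 1.83% higher, or 5.42% and 1.13% without 6 °C replicate 2. All lists hold named genes, and only 25020 of the 51670 genes tested have a protein name. With genes with a plant hit fitted alone, 2829 fell and 721 rose. Named genes may thus be called more often than all genes, and a list share slightly above 7.19% is not a result about the list. Of 129 tested cytochrome P450 genes 23 fell (17.8%) and none rose, and 15 fell and 3 rose without replicate 2. Of 133 UDP-glycosyltransferases 14 fell (10.5%), and 14 fell and 2 rose without it. ABC transporters fell in 23 of 103 (22.3%), and in 29 without that library. Among transcription factor families, MYB factors fell in 19 of 82 (23.2%) with 1 higher, bHLH factors in 15 of 71 (21.1%) with 1 higher, ERF and AP2 factors in 14 of 71 (19.7%) with 2 higher, WRKY factors in 8 of 57 (14%) with 1 higher and zinc finger stress factors in 4 of 87 (4.6%) with 3 higher. Without replicate 2 the lower counts of these families were 16, 9, 8, 7 and 3, and the higher ones 0, 2, 1, 2 and 1. LRR receptor kinases fell in 40 of 195 (20.5%) and rose in 4, and 29 fell and 1 rose without replicate 2. Lectin, wall-associated and cysteine-rich kinases fell in 27 of 236 (11.4%) and rose in 7, and 16 fell (6.78%) and 10 rose without it. Gibberellin, brassinosteroid and cytokinin genes fell in 12 of 49 (24.5%), and cytoskeleton genes in 24 of 184 (13%), with 9 and 27 lower without that library.

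Cell cycle, histone and replication genes fell in 21 of 242 (8.68%) and rose in 3, and 18 fell and 2 rose without replicate 2. Starch metabolism had 3 lower and 1 higher of 55, and 0 of either without it. Sugar metabolism and transport had 6 lower and none higher of 118, and 9 lower without it, and carotenoid and isoprenoid synthesis 4 lower of 31 (12.9%), and 3 without it. Ubiquitin ligases had 35 lower (10.1%) and 8 higher of 345, and 21 and 4 without it. RNA splicing factors and helicases had 9 lower and 2 higher of 174, and 2 and 0 without it, and organelle ribosomal and PPR proteins 20 lower and 12 higher of 473, and 13 and 7 without it. Retrotransposon proteins rose in 27 of 906 (2.98%) and fell in 16, and 14 rose and 10 fell without replicate 2. Of 5 tested genes with a microbial, insect or virus match none was called, and of 7 named like ribosomal RNA 1 fell, and none without replicate 2.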
